A study of Homo sapiens with 12 samples.

Results

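The genes described here build the machinery that starts and carries out DNA replication: 52 genes for origin recognition, licensing, the replicative helicase, origin firing, the replicative polymerases, the sliding clamp and its loaders, lagging-strand processing, the single-strand binding protein RPA and chromatin assembly behind the fork. They were listed by symbol, with earlier results of these data already known. All 52 were found among the 62700 genes of the deposited table, and all 52 passed the filter on low counts, as did 18049 genes in all.

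Poly(A) RNA was sequenced from HCT116 TIM-mAID cells, a human colorectal cancer line in which TIMELESS (TIM), a fork protection protein, carries a knocked-in auxin-inducible degron tag (mAID). Cells were harvested at 40 h in 4 groups of 3 biological replicates: DMSO (the solvent control), 5-Ph-IAA, ATRi, and 5-Ph-IAA/ATRi, called the combination below. 5-Ph-IAA is an auxin analogue that directs tagged proteins to degradation, ceralasertib (ATRi) blocks ATR, the kinase that responds to stalled forks, and each compound was used at 1 µM. The tagged allele is carried by every library, DMSO included, so no group is an untagged parental line, and whether the line is a single clone is not given in the sources used here. The comparisons ask what each compound and their combination did to the transcripts of the replication machinery.

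Replication begins when the origin recognition complex, CDC6 and CDT1 load the MCM2-7 helicase onto chromatin in G1. The kinases DDK and CDK then bring CDC45 and the GINS complex to the helicase, after which polymerase alpha-primase lays primers and polymerases epsilon and delta extend them, tethered by the PCNA clamp that the RFC complexes load. Most of these genes are transcribed in late G1 and S phase from promoters bound by E2F factors, so their RNA is known to be abundant in cycling cells and low in arrested ones.

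Promoter windows from RefSeq (GRCh38.p14), reaching from 250 bases before to 50 after a start site, were given for 41 of the 52 genes. The letters TTTCCCGC or TTTGGCGC, the core of the E2F binding motif, were searched on both strands. They were present in 17 of the 41 genes (41.5%) and in 2.75% of all 27305 gene symbols with a window. The median GC content was 64% over the windows of these genes and 58.7% over all windows. The stretches below lie just upstream of start sites of 4 genes whose RNA fell with the combination and of PCNA, whose mean was higher. They are shown to let the shared letters be seen, and capitals mark the E2F letters, read on either strand.
CDT1, chr16:88803689-88803788, + strand: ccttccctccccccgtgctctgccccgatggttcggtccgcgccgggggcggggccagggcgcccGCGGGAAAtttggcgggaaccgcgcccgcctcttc
GINS2, chr16:85688955-85689054, - strand: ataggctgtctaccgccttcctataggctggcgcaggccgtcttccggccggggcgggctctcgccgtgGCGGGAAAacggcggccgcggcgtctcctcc
CDC7, chr1:91501012-91501111, + strand: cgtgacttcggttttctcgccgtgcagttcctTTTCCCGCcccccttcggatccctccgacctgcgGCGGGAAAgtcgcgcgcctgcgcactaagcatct
POLE, chr12:132687343-132687442, - strand: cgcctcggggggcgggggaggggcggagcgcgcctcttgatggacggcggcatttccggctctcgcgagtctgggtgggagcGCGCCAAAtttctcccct
PCNA, chr20:5126623-5126722, - strand: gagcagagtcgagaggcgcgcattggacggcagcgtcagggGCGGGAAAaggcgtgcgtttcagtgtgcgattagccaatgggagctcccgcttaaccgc

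CDC7 holds the letters 2 times, once in each orientation, and the other 4 stretches hold them once. The CCAAT box, a common promoter element, was present in 58.5% of the 41 genes and in 39.7% of all symbols. The letters TTTGAA or TTCGAA, which match the cell cycle element of genes expressed in G2 and M phase, were present in 4.88% and in 19.5%. These matches are descriptions of the windows and no measure of factor binding.

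Library totals ranged from 27.7 to 34.7 mega estimated counts (M), and the lowest count of any of the 52 genes in any library was 87, for TICRR. Levels are given as CPM scaled with TMM factors, which correct for differences in library makeup, and are compared between libraries and not between genes. The DMSO libraries stood far apart on these genes: DMSO replicate 2 was the lowest and DMSO replicate 3 the highest of the DMSO libraries for all 52 genes, against 7803 and 7104 of the 18049 genes tested. The median ratio of the highest to the lowest DMSO library was 2.61 over the 52 genes (1.22 to 7.60) and 1.52 over all genes. In the combination the same ratios were 1.27 and 1.29. The share of mitochondrial counts was 14.9% in DMSO replicate 2, 7.85% and 6.63% in DMSO replicates 1 and 3, and 10.7% to 13.9% in the combination. It was 6.79% to 13.6% with 5-Ph-IAA and 7.4% to 13.4% with ATRi. The noncoding RNA MALAT1 stood at 3600, 10740 and 1088 CPM in DMSO replicates 1 to 3. Its range was 1331 to 7240 CPM with 5-Ph-IAA, 1632 to 9457 with ATRi and 3202 to 7665 with the combination. The part of MALAT1 levels in the results was not tested. All 7 epithelial markers examined, EPCAM and KRT8 among them, were detected in every library. Levels of the epithelial and other cell type markers are CPM of the library total, without TMM factors. The summed epithelial level was 4770 to 6410 CPM with DMSO and 5160 to 6830 with 5-Ph-IAA. It was 6190 to 6540 with ATRi and 10200 to 11600 with the combination. Of 11 markers of blood, endothelium, fibroblasts, red cells and liver, COL1A1 alone exceeded 2.60 CPM, at 36.2 to 100 CPM, and PTPRC, CD3E, MS4A1 and DCN were at or near 0. The part of these marker levels in the results was not tested. CDKN1A, which encodes the CDK inhibitor p21 and is a textbook target of p53, stood at 189 to 234 CPM with DMSO, 341 to 487 with 5-Ph-IAA, 596 to 842 with ATRi and 2027 to 2112 with the combination.

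**Figure D1:**
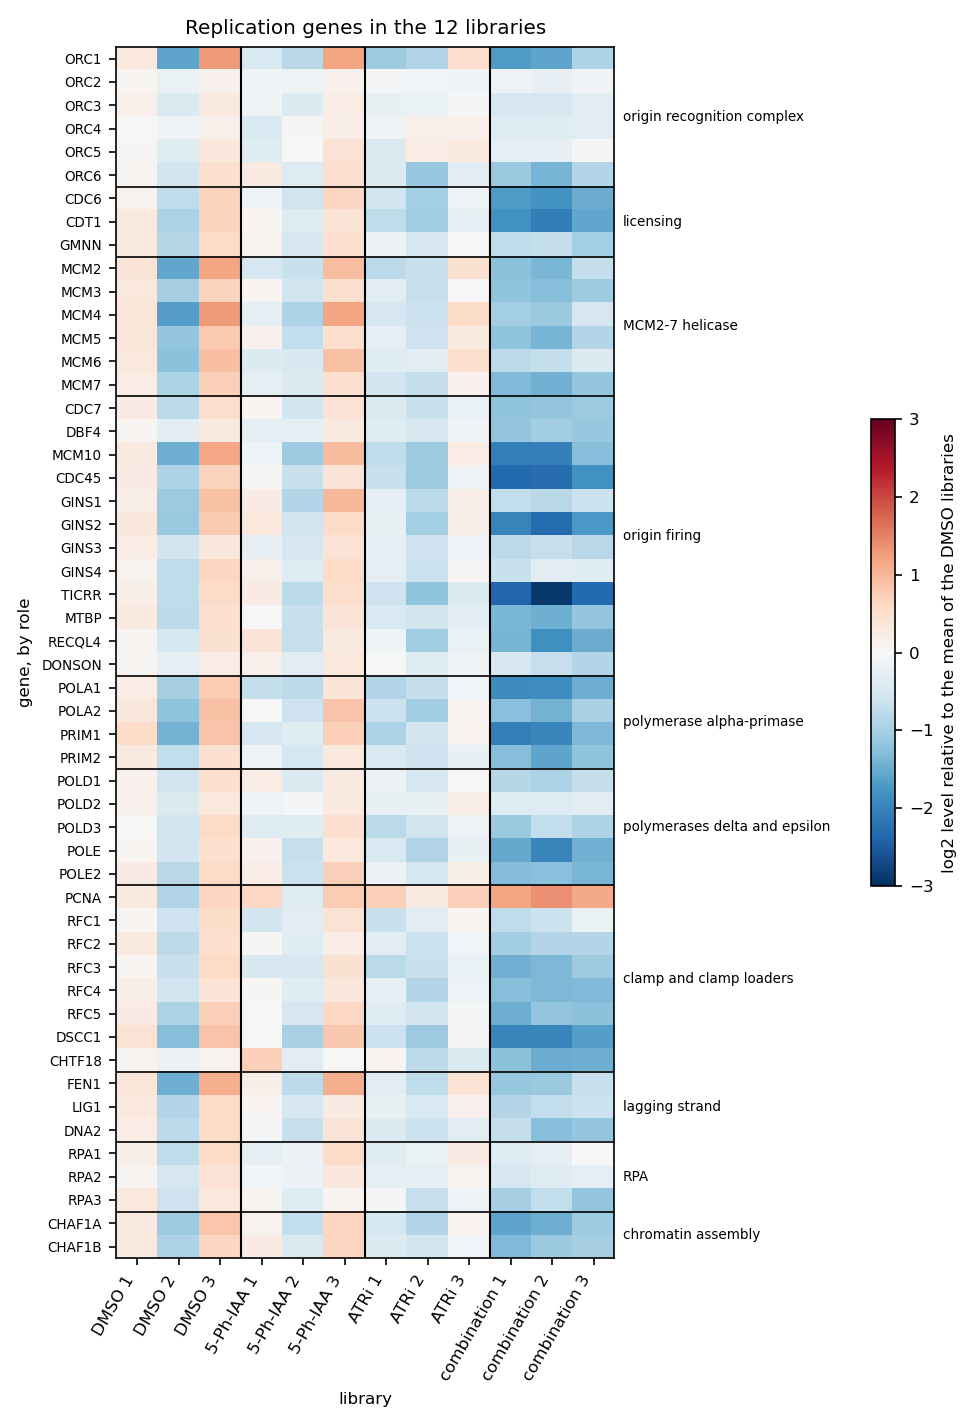
Levels of the 52 replication genes in the 12 libraries, as log2 differences from the mean log2 level of the 3 DMSO libraries (blue lower, red higher), with genes in rows grouped by role and libraries in columns. DMSO replicate 2 is below the DMSO mean for all 52 genes, and in the combination libraries 51 of 52 are below it, with PCNA above.

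With the combination, 29 of the 52 genes fell and none rose at an adjusted p under 0.05 (edgeR), against 6.89% of all genes tested that fell and 6.24% that rose. The log2 fold change was negative for 51 of the 52 genes, with a median of -1.30 (-2.62 to 1.10), beside a median of -0.02 over all genes. In 29 of the 52 genes all 3 combination libraries lay below all 3 DMSO libraries, as they did in 15.9% of all genes. Of these, 26 were among the genes that fell. PRIM1, DNA2 and CHAF1A fell although a combination library lay above DMSO replicate 2, while ORC4, GINS3 and POLD3 separated without passing the test. The median level relative to the DMSO mean was -1.20, -1.22 and -1.01 (log2) in the 3 combination libraries. It was 0.23, -0.78 and 0.58 in the DMSO libraries themselves, so the nearest control to the combination was DMSO replicate 2. All 3 combination libraries lay below DMSO replicate 1 in 51 genes, below DMSO replicate 3 in 51 and below DMSO replicate 2 in 29. In a bulk measurement, fewer cells in S phase and less RNA per cell cannot be told apart.

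The count of 29 rested on several single libraries. It was 42 without DMSO replicate 2, 11 without DMSO replicate 1, and 12 that fell with 1 that rose, PCNA, without DMSO replicate 3. Without combination replicate 1, 2 or 3 it was 11, 10 and 13. Without 5-Ph-IAA or ATRi libraries it lay between 24 and 32. Over the 12 fits that left out a library, 3.59% to 7.6% of all genes fell. With the mitochondrial share as a covariate 32 genes fell and PCNA rose, the median was -0.82, and 19.3% of all genes fell. Taking the replicate number as a block, 41 genes fell and PCNA rose, with 13.6% of all genes lower. Limma-voom gave 19 that fell, with 6.11% of all genes lower. CDT1, CDC45, DBF4, TICRR, RECQL4, PRIM2, POLE, RFC4 and CHTF18 passed in all 21 alternative fits, the 12 that left out a library among them. The other 20 genes that fell missed the threshold in at least 1 of those 21 fits.

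**Figure D2:**
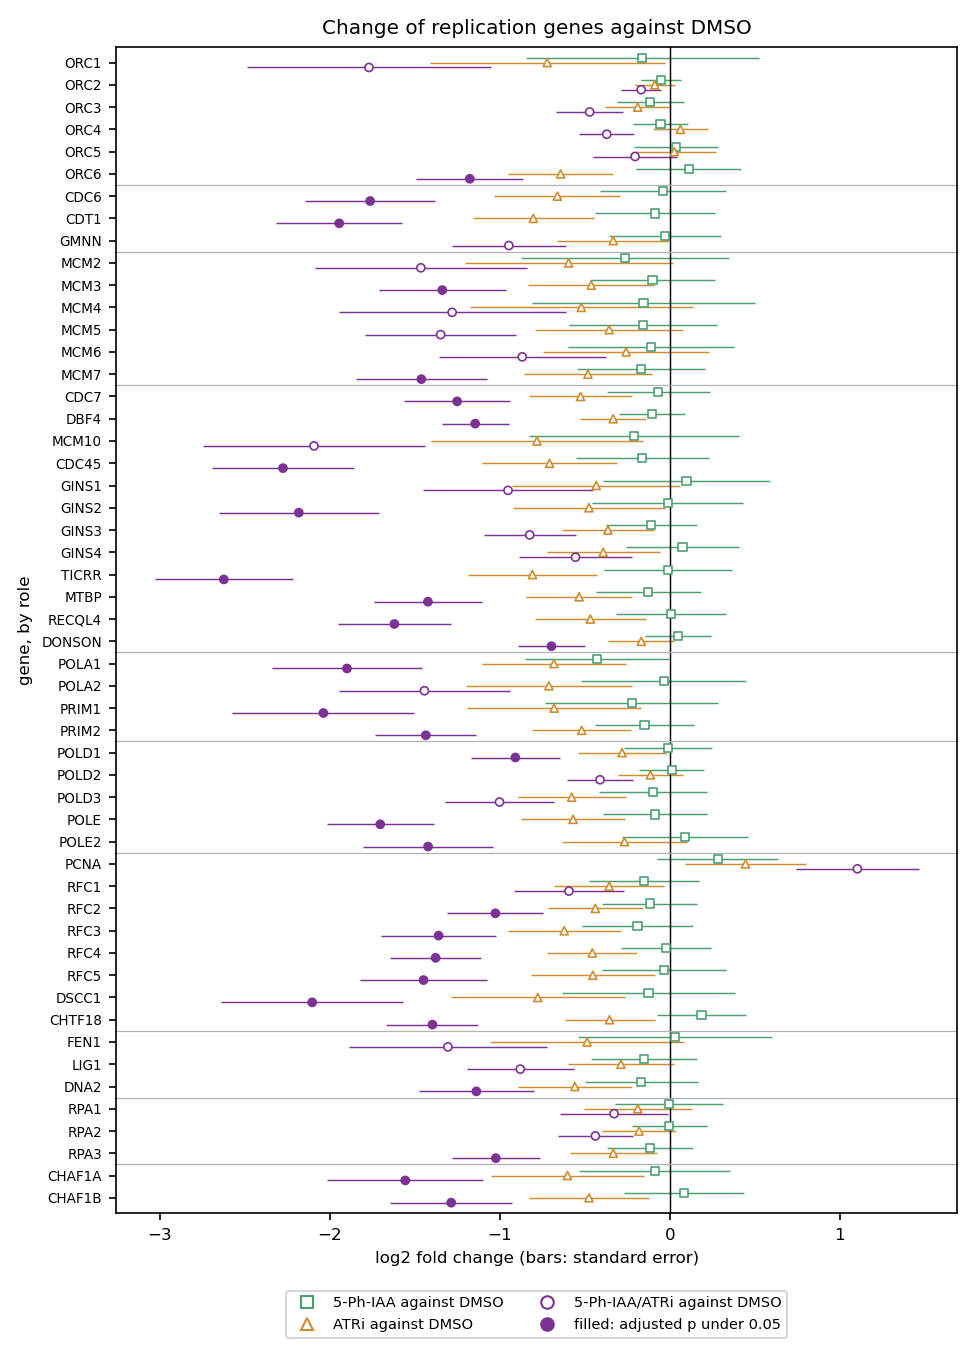
Log2 fold change against DMSO of each of the 52 genes (points, with the standard error as a bar) for 5-Ph-IAA, ATRi and the combination, all 3 of which share the DMSO libraries. Filled points, with an adjusted p under 0.05, occur in the combination alone and number 29, and PCNA is the single gene right of 0 in that comparison.

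The origin recognition complex, the 6-subunit ATPase that marks origins, had 1 gene of 6 that fell with the combination, ORC6. The median log2 difference over the 6 was -0.42 (-1.77 to -0.17). ORC6, the subunit that recruits CDT1-bound MCM, stood at 21.1, 13.3 and 27.8 CPM in DMSO replicates 1 to 3, at 23.8, 15.1 and 28.2 with 5-Ph-IAA, at 14.9, 9.04 and 15.9 with ATRi and at 9.13, 7.52 and 10.8 with the combination. Every combination library was below every DMSO and 5-Ph-IAA library. ORC6 (ENSG00000091651 in the deposited table, chr16:46689659-46698394) fell by 1.18 ± 0.31 on the log2 scale (SE, edgeR adjusted p = 0.0303). ORC1, the subunit whose protein is degraded in each S phase, had the widest DMSO spread of the complex, at 13.7, 3.67 and 26.6 CPM. Its combination libraries, at 3.40, 3.67 and 5.82 CPM, overlapped with DMSO replicate 2, and its log2 difference of -1.77 ± 0.72 was not past the threshold (adjusted p = 0.137). ORC2 was nearly level across the 12 libraries, from 49.5 to 63.8 CPM. ORC2, ORC3, ORC4 and ORC5 had log2 differences between -0.47 and -0.17, and none passed the test.

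Both licensing factors that load the helicase fell, and geminin, the inhibitor of CDT1, was not past the threshold. CDT1, which brings MCM2-7 to origins and is destroyed in S phase, stood at 58.8, 25.1 and 76.3 CPM with DMSO, at 50.5, 36.6 and 63.7 with 5-Ph-IAA, at 28.7, 23.3 and 39.8 with ATRi and at 13.8, 11.4 and 16.4 with the combination. The 3 combination libraries were the lowest of the 12, and the group mean went from 53.4 ± 26.0 to 13.9 ± 2.46 CPM (SD, n = 3). CDT1 (chr16:88803789-88809258) thus fell by 1.95 ± 0.37 (log2, adjusted p = 0.00572). CDC6, the ATPase that works with ORC in loading, stood at 61.3, 33.3 and 89.5 CPM with DMSO, 52.5, 37.3 and 89.3 with 5-Ph-IAA, 37.4, 28.2 and 50.8 with ATRi and 17.6, 16.5 and 20.2 with the combination. Its combination libraries were also below all others, and CDC6 (chr17:40287879-40304657) fell by 1.76 ± 0.38 (log2, adjusted p = 0.0113). GMNN, which encodes geminin, the protein that holds CDT1 inactive outside G1, stood at 33.4, 15.2 and 41.1 CPM with DMSO and at 16.3, 16.7 and 13.6 with the combination. These groups overlapped through DMSO replicate 2, and the log2 difference was -0.95 ± 0.33 (adjusted p = 0.0886).

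MCM2 to MCM7 encode the ring that forms the core of the replicative helicase. Of the 6 genes MCM3 and MCM7 fell, and the other 4 were lower in the mean without passing the test. MCM7 stood at 249, 111 and 352 CPM with DMSO, 176, 158 and 300 with 5-Ph-IAA, 145, 131 and 234 with ATRi and 85.3, 79.2 and 93.9 with the combination. All 3 combination libraries were below the other 9, and the log2 change was -1.46 ± 0.39 (adjusted p = 0.0287). MCM3, at 216, 86.9 and 277 CPM with DMSO and 75.0, 71.8 and 82.6 with the combination, changed by -1.34 ± 0.38 (log2, adjusted p = 0.0372). MCM2 had a log2 difference of the same size, -1.47 ± 0.62, with a wider error and an adjusted p of 0.156. Its DMSO libraries stood at 93.7, 24.2 and 161 CPM and its combination libraries at 30.2, 27.4 and 43.4 CPM, so DMSO replicate 2 lay below all 3 of them. MCM4 had the widest DMSO range of the 52 genes, 31.6 to 240 CPM, a 7.60-fold spread against 45.4 to 69.6 CPM in the combination. MCM4, MCM5 and MCM6 had log2 differences of -1.28, -1.35 and -0.87, with adjusted p values of 0.248, 0.0699 and 0.291.

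In origin firing 8 of the 12 genes fell, with a median log2 difference of -1.34 over the 12. TICRR, CDC45 and GINS2, described first, had the 3 lowest single values of the 52 genes. TICRR, which bridges CDK activity to CDC45 loading, stood at 27.0, 14 and 35.2 CPM with DMSO, 28.1, 13.5 and 34.0 with 5-Ph-IAA, 15.4, 10.2 and 17.9 with ATRi and 4.51, 3.16 and 4.69 with the combination. Its highest combination library was below its lowest library in every other group. TICRR (chr15:89575469-89628023) showed the lowest log2 change of the 52 genes, -2.62 ± 0.41 (adjusted p = 0.00188). CDC45, the helicase subunit whose loading marks a fired origin, stood at 22.1, 9.91 and 30.2 CPM with DMSO, 19.2, 11.8 and 24.8 with 5-Ph-IAA, 11.8, 8.80 and 17.6 with ATRi and 3.72, 3.82 and 5.33 with the combination. That separation corresponded to a log2 change of -2.28 ± 0.42 (adjusted p = 0.00486). GINS2, a subunit of the GINS complex that completes the active helicase, went from 39.6, 14.5 and 54.1 CPM with DMSO to 7.87, 6.36 and 9.59 with the combination, a change of -2.18 ± 0.47 (log2, adjusted p = 0.0109).

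The other GINS genes did not share that call. GINS1, GINS3 and GINS4 had log2 differences of -0.95, -0.83 and -0.56, with adjusted p values of 0.252, 0.0694 and 0.325. Both subunits of the DDK kinase that triggers firing fell. DBF4, its regulatory subunit, stood at 52.8, 39.6 and 61.5 CPM with DMSO, 40.9, 41.4 and 60.7 with 5-Ph-IAA, 38.9, 36.1 and 47.1 with ATRi and 22.2, 24.3 and 23.0 with the combination. DBF4 had a narrower DMSO spread than most of the 52 genes, a 1.55-fold range, and changed by -1.15 ± 0.20 (log2, adjusted p = 0.00329). CDC7, the catalytic subunit, changed by -1.25 ± 0.31 (adjusted p = 0.0216), from 37.7, 18.4 and 45.3 CPM to 13.7, 13.95 and 14.9 CPM. RECQL4, a helicase-family protein needed for firing, and MTBP, the partner of the TICRR protein, changed by -1.62 ± 0.33 and -1.42 ± 0.32 (log2, adjusted p = 0.00894 and 0.0132). DONSON, a factor in helicase assembly, changed by -0.70 ± 0.20 (adjusted p = 0.0373), the smallest of the changes that passed. MCM10, needed for helicase activation, had a log2 difference of -2.09 ± 0.65 that was not past the threshold (adjusted p = 0.0574). Its DMSO libraries spanned 7.23 to 44.6 CPM, and the highest combination library, at 8.27 CPM, lay within that span.

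**Figure D3:**
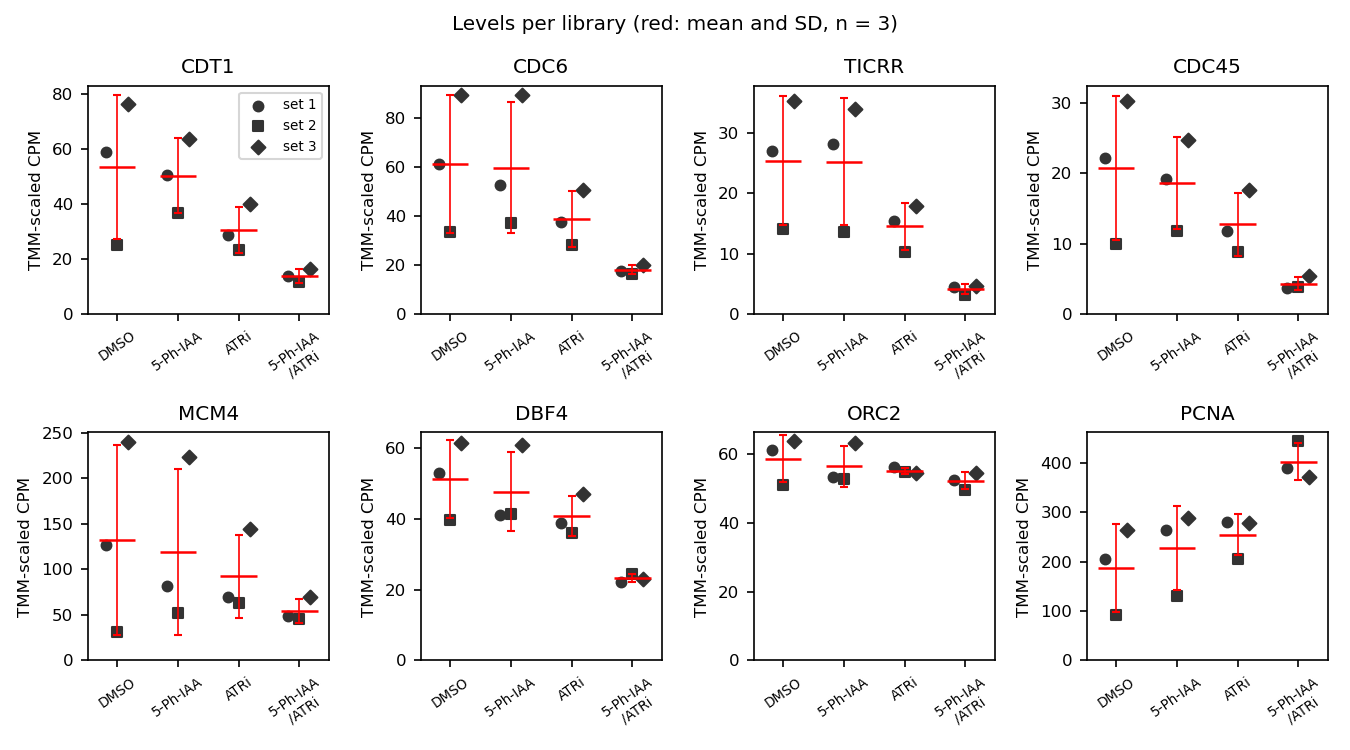
TMM-scaled CPM of 8 replication genes in each library (black symbols by replicate number) with the group mean and SD in red (n = 3), from 0 on a linear axis. CDT1, CDC6, TICRR, CDC45 and DBF4 are below every DMSO library with the combination, MCM4 and ORC2 overlap with DMSO, and PCNA is above every DMSO library.

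Polymerase alpha-primase, which makes the RNA-DNA primers, fell in 3 of its 4 genes. PRIM2, the large primase subunit, stood at 40.0, 19.8 and 45.8 CPM with DMSO, 30.7, 22.9 and 41.5 with 5-Ph-IAA, 23.9, 21.4 and 28.4 with ATRi and 13.6, 11.1 and 14.3 with the combination. All combination libraries were below the other 9, with a log2 change of -1.44 ± 0.30 (adjusted p = 0.00904). POLA1, the catalytic polymerase subunit, went from 37.9, 16.3 and 55.2 CPM to 8.70, 8.94 and 11.7 CPM and changed by -1.90 ± 0.44 (log2, adjusted p = 0.0157). PRIM1, the small primase subunit, changed by -2.04 ± 0.54 (adjusted p = 0.0283) although combination replicate 3, at 8.84 CPM, lay above DMSO replicate 2, at 8.32 CPM. POLA2, the accessory subunit, had a log2 difference of -1.44 ± 0.50 and was not past the threshold (adjusted p = 0.0840).

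Among the 5 genes of polymerases delta and epsilon, POLE, POLE2 and POLD1 fell and POLD2 and POLD3 were not past the threshold. POLE, the catalytic subunit of the leading-strand polymerase, stood at 103, 66.9 and 140 CPM with DMSO, 108, 61.3 and 123 with 5-Ph-IAA, 71.7, 53.2 and 84.3 with ATRi and 34.1, 25.0 and 36.1 with the combination. The combination libraries were well below the other 9, and POLE (chr12:132623762-132687342) changed by -1.70 ± 0.31 (log2, adjusted p = 0.00491). POLE2, the second subunit of that enzyme, went from 15.1, 7.19 and 19.3 CPM to 5.19, 5.38 and 4.97 CPM, a change of -1.42 ± 0.38 (adjusted p = 0.0309). POLD1, the catalytic subunit of polymerase delta, changed by -0.91 ± 0.26 (adjusted p = 0.0407). POLD2, an accessory subunit, had a log2 difference of -0.41 ± 0.19 (adjusted p = 0.197). POLD3, another, stood at 13.8, 8.89 and 20.3 CPM with DMSO and at 6.23, 8.07 and 7.17 with the combination, with an adjusted p of 0.0642.

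Most clamp loader genes fell, while the gene of the clamp they load had a higher mean. Of the 7 loader genes 6 fell. RFC4, a small subunit shared by all loader complexes, stood at 54.6, 32.0 and 64.3 CPM with DMSO, 49.8, 37.5 and 61.3 with 5-Ph-IAA, 40.5, 26.4 and 43.2 with ATRi and 20.0, 18.9 and 19.2 with the combination. Its change was -1.38 ± 0.27 (log2, adjusted p = 0.00669). CHTF18, the large subunit of the alternative loader that acts in sister chromatid cohesion, stood at 82.9, 69.0 and 84.0 CPM with DMSO, 129, 62.1 and 77.1 with 5-Ph-IAA, 81.3, 45.1 and 57.9 with ATRi and 33.4, 27.8 and 28.3 with the combination. It was among the genes with the narrowest DMSO range and changed by -1.40 ± 0.27 (adjusted p = 0.00635). DSCC1, a second subunit of that loader, and RFC5, another shared small subunit, changed by -2.10 ± 0.54 and -1.45 ± 0.37 (log2, adjusted p = 0.0246 and 0.0260). RFC2 and RFC3 fell as well, with log2 changes of -1.03 and -1.36. RFC1, the large subunit of the main loader, had a log2 difference of -0.59 ± 0.33 and was not past the threshold (adjusted p = 0.274).

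PCNA encodes the ring that tethers the polymerases to DNA. It also serves DNA repair, and its gene is a known target of p53. It was the only one of the 52 genes with a higher mean in the combination than with DMSO. Its levels were 205, 91.4 and 265 CPM with DMSO, 264, 130 and 289 with 5-Ph-IAA, 280, 207 and 278 with ATRi and 390, 444 and 372 with the combination. The 3 combination libraries lay above the other 9. The log2 difference from DMSO was 1.10 ± 0.36, and the adjusted p of 0.0686 was not past the threshold. Without DMSO replicate 3 it was 1.44 ± 0.38 (adjusted p = 0.0392), without 5-Ph-IAA replicate 2 it was 1.10 ± 0.31 (adjusted p = 0.0453), and without DMSO replicate 2 it was 0.77 ± 0.30 (adjusted p = 0.12). DESeq2 gave 1.10 ± 0.37 with an adjusted p of 0.0201. The fit without a count filter gave 1.08 ± 0.28 (adjusted p = 0.0212), and the mitochondrial covariate gave 1.44 ± 0.33 (adjusted p = 0.00442). In all, PCNA passed in 6 of the 21 alternative fits, 2 of the 12 that left out a library among them. Of those it missed, limma-voom gave an adjusted p of 0.0548. Without combination replicate 1, 2 or 3 the edgeR adjusted p was 0.14, 0.177 and 0.129.

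Within each library, PCNA was also set against the median of the other 51 genes, both relative to their DMSO means. PCNA exceeded that median by 0.04, -0.12 and 0.06 (log2) in the DMSO libraries and by 0.62, 0.11 and 0.30 with 5-Ph-IAA. With ATRi the excess was 1.09, 0.92 and 0.73, and with the combination 2.40, 2.63 and 2.14. The 4 groups did not overlap and stood in that order. The comparison was made with the direction of PCNA already known and is given with no test. In the DMSO libraries PCNA followed the other genes, being lowest in replicate 2 and highest in replicate 3.

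**Figure D4:**
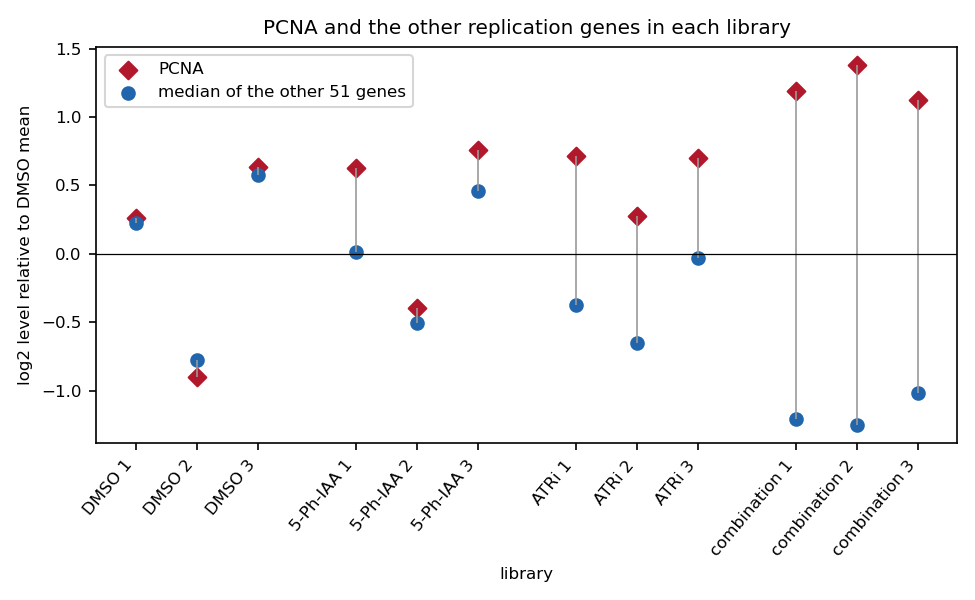
Log2 level relative to the mean log2 level of the DMSO libraries for PCNA (red diamonds) and for the median of the other 51 replication genes (blue circles) in each of the 12 libraries. The gap between both is at most 0.12 in the DMSO libraries and 2.14 to 2.63 in the combination libraries.

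The PCNA window with the E2F letters shown above belongs to the start site at chr20:5126622. A second window belongs to a start site at chr20:5119958, inside the PCNA gene span (chr20:5114953-5126622). It holds a single decamer that matches a p53 half-site, marked by capitals in the stretch below. The stretch is shown because PCNA was the gene that went the other way. Whether p53 binds there, or acts on PCNA in these cells, was not tested.
PCNA, second start site, chr20:5120109-5120208, - strand: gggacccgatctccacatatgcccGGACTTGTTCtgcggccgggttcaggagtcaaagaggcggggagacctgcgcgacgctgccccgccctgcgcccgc

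The same decamer consensus was met in 14.6% of the 41 genes and in 8.06% of all symbols. CDC7, MCM6, PRIM2, RFC3 and TICRR also held it, and 4 of these 5 fell. Genes with and without the E2F letters had like values in the combination: 10 of the 17 with the letters fell, with a median log2 change of -1.34, and 13 of the 24 without fell, with a median of -1.34. Of the 11 genes with no window 6 fell.

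Lagging-strand processing, RPA and chromatin assembly differed among themselves. DNA2, a nuclease that trims long flaps, fell from 17.0, 8.46 and 21.7 CPM to 8.91, 5.995 and 6.53 CPM, by 1.14 ± 0.34 on the log2 scale (adjusted p = 0.0482), although combination replicate 1 lay above DMSO replicate 2. LIG1, the ligase that seals Okazaki fragments, and FEN1, the main flap nuclease, had log2 differences of -0.88 ± 0.32 and -1.31 ± 0.58 without passing the test (adjusted p = 0.0942 and 0.175). RPA3, the smallest subunit of the single-strand binding protein, stood at 44.1, 23.2 and 44.4 CPM with DMSO and 17.9, 21.2 and 15.8 with the combination, and changed by -1.02 ± 0.26 (adjusted p = 0.0234). RPA1 and RPA2, the large and middle subunits, had log2 differences of -0.33 ± 0.32 and -0.44 ± 0.22 (adjusted p = 0.576 and 0.231). With the mitochondrial covariate the difference of RPA1 was 0.14 (adjusted p = 0.364) and that of ORC5 0.085 (adjusted p = 0.634), against -0.33 and -0.205 without it. The large and middle CAF-1 subunits that deposit histones behind the fork both fell, CHAF1A by 1.56 ± 0.46 and CHAF1B by 1.29 ± 0.36 on the log2 scale (adjusted p = 0.0455 and 0.0372). CHAF1B went from 27.1, 11.6 and 34.3 CPM to 8.77, 10.1 and 11.0 CPM, with no overlap, and CHAF1A overlapped with DMSO replicate 2 through combination replicate 3.

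Neither compound alone gave a call among the 52 genes. With 5-Ph-IAA none passed the test, against 0% of all genes that fell. None had an unadjusted p under 0.05, where 71 of the 18049 genes tested were lower and 168 higher. The median log2 change was -0.09 (-0.43 to 0.28), and 40 of 52 values were negative. No gene had all 5-Ph-IAA libraries below all DMSO libraries, against 1.38% of all genes. The 5-Ph-IAA libraries repeated the DMSO pattern, with medians of 0.01, -0.50 and 0.47 relative to the DMSO mean. The sign of the median was not stable: it was 0.25 without DMSO replicate 3, 0.13 without 5-Ph-IAA replicate 2 and 0.08 with the mitochondrial covariate. TIMELESS RNA, whose tagged protein is the target of 5-Ph-IAA, stood at 52.2, 30.5 and 67.9 CPM with DMSO and 39.6, 41.4 and 63.0 with 5-Ph-IAA. Its RNA level does not measure the tagged protein.

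With ATRi alone none of the 52 genes passed, against 0% of all genes that fell, and DESeq2 and limma-voom also gave 0. CDT1 was the single gene with an unadjusted p under 0.05, at a log2 difference of -0.80 ± 0.36 (adjusted p = 1). Of all 18049 genes tested, 451 were lower and 426 higher at that unadjusted threshold. The median was -0.47 (-0.81 to 0.45), with 49 of 52 values negative, and ranged from -0.10 without DMSO replicate 3 to -0.80 without DMSO replicate 2. In no gene did the ATRi and DMSO libraries separate, against 4.07% of all genes with ATRi below. Relative to the DMSO mean, the median over the genes was -0.38, -0.65 and -0.02 in the ATRi libraries, a range that lies within that of the DMSO libraries.

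Against 5-Ph-IAA alone, the combination was lower in 20 of the 52 genes and higher in none, with 5.04% of all genes lower. The combination libraries lay below all 5-Ph-IAA libraries in 40 genes, against 14% of all genes, and the median log2 change was -1.20. TICRR, CDC45, GINS2, CDT1 and CDC6 changed by -2.61, -2.11, -2.17, -1.86 and -1.72, with edgeR adjusted p values of 0.00314, 0.0100, 0.0152, 0.0102 and 0.0169. CHTF18 and DBF4 changed by -1.58 and -1.04 (adjusted p = 0.00486 and 0.00808). None of MCM2 to MCM7 passed here, and MCM7 and MCM3 came nearest at -1.29 and -1.24 (adjusted p = 0.0584 and 0.0626). The count was 34 without DMSO replicate 2, 11 and 10 without 5-Ph-IAA replicates 1 and 3, and 7, 5 and 9 without combination replicates 1, 2 and 3. Over the fits that left out a library, 2.26% to 6.06% of all genes were lower. A block for the replicate number gave 37 lower and 1 higher (10.5% of all genes lower), and limma-voom 13 lower (4.29%). The comparison with 5-Ph-IAA shares the combination libraries with the comparison against DMSO, so both sets of values stand side by side and neither supports the other.

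Against ATRi alone, 2 of the 52 genes passed, DBF4 and TICRR, with 1.88% of all genes lower. DBF4 changed by -0.81 ± 0.20 and TICRR by -1.82 ± 0.40 (log2, adjusted p = 0.0452 and 0.0323). The next smallest adjusted p values were those of CHTF18 at 0.0595, CDC45 at 0.0635 and GINS2 at 0.0723, with log2 differences of -1.04, -1.57 and -1.71. The combination lay below all ATRi libraries in 39 genes, against 14% of all genes, and the median was -0.79. Both calls were lost when DMSO replicate 1 or any ATRi or combination library was left out. Without DMSO replicate 2 the count was 8, with 2.55% of all genes lower. In a fit of the 2 groups alone 23 of the 52 genes fell and 1 rose, with 3.13% of all genes lower. A block for the replicate number gave 26 lower (5.95% of all genes) and the mitochondrial covariate 19 (9.89%). DESeq2 gave 11 lower (4.38%) and limma-voom 0 (1.55%).

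The interaction asks whether the combination departed from the sum of the 2 single changes on the log2 scale. No gene of the 52 passed, against 0.0665% of all genes with a negative interaction. At an unadjusted p under 0.05, 9 of the 52 were negative and none positive, against 749 and 568 of the 18049 genes tested. At the adjusted threshold DESeq2 and limma-voom gave 0, and the mitochondrial covariate gave 1, DBF4, with 1.18% of all genes negative. With the replicate number as a block 6 passed, all negative, with 0.942% of all genes negative. These were TICRR, POLE, GINS2, RECQL4, CDC45 and CHTF18. In the main fit the median was -0.68, with 51 of 52 values negative, beside 0.00 over all genes. TICRR and CHTF18 had the smallest unadjusted p values, with interactions of -1.80 ± 0.54 and -1.23 ± 0.38 (adjusted p = 0.396 and 0.406).

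The other replication genes examined were 45 genes of accessory subunits, fork protection, histone chaperones, cyclins and E2F factors. Of these 16 fell with the combination and none rose, against 6.89% of all genes tested that fell and 6.24% that rose. The median log2 change over the 45 was -0.74, with 39 negative values, beside a median of -0.02 over all genes. TOP2A, the topoisomerase that untangles replicated DNA, stood at 185, 127 and 218 CPM with DMSO, 210, 121 and 238 with 5-Ph-IAA, 121, 82.4 and 124 with ATRi and 28.6, 34.1 and 40.7 with the combination. The combination libraries were far below the rest, and TOP2A changed by -2.36 ± 0.29 (adjusted p = 0.000487). PCLAF, which binds the PCNA ring, went from 62.2, 40.5 and 63.7 CPM to 12.5, 10.8 and 12.1 CPM, a change of -2.23 ± 0.29 (adjusted p = 0.000692). DTL, the adaptor of the ligase that destroys CDT1 on PCNA-bound chromatin, changed by -2.43 ± 0.47 (adjusted p = 0.00600). The activator genes E2F1 and E2F2 changed by -1.82 ± 0.46 and -2.07 ± 0.52 (adjusted p = 0.0245 and 0.0237), while the log2 difference of E2F3 was 0.02 (adjusted p = 0.955).

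In the fork protection group, TIMELESS changed by -1.18 ± 0.30 (adjusted p = 0.0233) and CLSPN, the adaptor of ATR signalling to CHK1, by -1.65 ± 0.45 (adjusted p = 0.0331), while TIPIN, the partner of the TIMELESS protein, had a difference of -0.23 (adjusted p = 0.560). The histone chaperone genes ASF1B and NASP changed by -2.01 and -1.01 (adjusted p = 0.00786 and 0.0109), while ASF1A stood at -0.29 (adjusted p = 0.117). RNASEH2A and RNASEH2B, subunits of an enzyme that removes ribonucleotides from DNA, changed by -1.58 and -0.61 (adjusted p = 0.00161 and 0.00390), while RNASEH2C stood at 0.39 (adjusted p = 0.196). POLD4, the smallest polymerase delta subunit, had the highest value of the 45, 0.67 ± 0.28 (adjusted p = 0.146), and CCNE1, which encodes cyclin E1, stood at 0.44 (adjusted p = 0.218). Against 5-Ph-IAA alone 13 of the 45 genes were lower, with 5.04% of all genes lower. Against ATRi alone 3 were lower (RNASEH2A, TOP2A and PCLAF), with 1.88% of all genes lower. Neither compound alone nor the interaction gave a call in the 45. The count of 16 against DMSO was 27 without DMSO replicate 2, 8 and 9 without DMSO replicates 1 and 3, and 9 without any single combination library. Over these fits 3.59% to 7.1% of all genes fell. DBF4B, RNASEH2A, RNASEH2B, TOP2A, ASF1B, DTL, PCLAF and DDX11 passed in all 21 alternative fits.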

How the data were processed

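Estimated counts per gene were made by the authors with Salmon 1.10.1, per the submitters' processing notes, which also name STAR 2.7.9a, SAMtools 1.17, cutadapt 3.4, Trim Galore 0.6.7 and FastQC 0.12.1, with build GRCh38.p14. Neither the annotation release nor the strand setting is given in the sources used here. Per the labels' protocols, libraries were poly(A)-selected and directional, with a DNase step. The deposited estimated counts, 13.6% of them not whole, were rounded. Such estimates can split reads between near-identical sequences. Of 17 rows named as copies of the 52 genes none held over 2.47% of the count of its parent gene (DBF4P1).

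From the counts, one edgeR 4.0.16 model of all 12 libraries was fitted (R 4.3.3, limma 3.58.1) with TMM factors, filterByExpr (minimum count 10, total 15; 18049 genes, at least 99.89% of counts) and 1 mean per group. The set number was not part of this model. Differences were tested with the quasi-likelihood F test. P values were adjusted over all tested genes by the Benjamini-Hochberg method and called under 0.05. Errors are SE for log2 changes and SD (n = 3) for levels. Per the series' design text replicates are biological. The chi-square per gene between replicates of a group was 16.4 to 241, far above sampling noise. Gene positions are RefSeq spans on GRCh38.p14.

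The genes, lists and tests were chosen with earlier results of these data known. Named genes are the 2 of each role with the smallest p, those past the threshold in another comparison, and fixed genes (CDC6, CDT1, GMNN, MCM2, PCNA, ORC1, CDC45, RPA1, TIMELESS, CDKN1A, MALAT1). Further genes are named by what they did. On simulated data for the combination against DMSO (17760 genes), 44% of 2-fold and 93% of 4-fold changes were recovered, with 5 false calls. The changed genes were picked at random and each gene was drawn independently. The spread that the replication genes shared between DMSO libraries was not simulated, so these are not rates for those genes. Alternatives were DESeq2 size factors, library totals, no and stricter count filters, DESeq2 1.42.0, limma-voom, only the compared groups, the replicate block, a mitochondrial covariate and leaving out each library.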

Additional observations from a re-analysis of the deposited data

How the results depend on the processing

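The share of all genes lower is given in brackets. For the combination against DMSO (29 genes, 6.89%), DESeq2 size factors, library totals and the stricter filter gave 29, 28 and 29 (6.83%, 7.3% and 8.25%). No filter gave 38 lower and PCNA higher (2.7%), and DESeq2 gave 37 lower and PCNA higher (9.63%). Limma-voom gave 19 (6.11%) and only the compared groups 19 (5.31%), all lower. Leaving out single libraries gave 10 to 42 (3.59% to 7.6%). Against 5-Ph-IAA (20, 5.04%) no filter and DESeq2 gave 32 each (1.98% and 7.86%), limma-voom 13 (4.29%) and the mitochondrial covariate 35 (16.5%). Leaving out single libraries gave 5 to 34 (2.26% to 6.06%). Against ATRi (2, 1.88%) library totals gave 1 (1.7%), no filter 9 (0.762%), DESeq2 11 (4.38%) and limma-voom 0 (1.55%). Only the compared groups gave 24 (3.13%) and the mitochondrial covariate 19 (9.89%). Leaving out single libraries gave 0 to 8 (0.39% to 2.55%). The interaction (0) gave 1 with the mitochondrial covariate (1.18% of all genes negative) and 6 with the replicate block (0.942%). Both single compounds gave 0 genes in every alternative run. Among the 45 other replication genes, limma-voom gave 10 that fell with the combination against DMSO (6.11%), and the replicate block 26 (13.6%). Of the 52 genes in the combination against DMSO, RPA1 and ORC5 changed sign in an alternative, from -0.33 to 0.14 and from -0.205 to 0.085 with the mitochondrial covariate, and no other did. The cause was not tested. Of the other alternatives of named genes 914 stayed on their side of the threshold, 197 lost the call and 22 gained it.

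The replicate numbers are the set numbers of the sample titles, and each set holds a library of every group. What the libraries of a set shared is not given in the sources used here. In every group the median level of the 52 genes was lowest in replicate 2 and highest in replicate 3. Deviations of equal-numbered libraries correlated at -0.085 to 0.689, over 0.1 in 13 of 18 pairs, and 8 of 12 libraries correlated best with their own number. With the replicate block, 42 genes passed in the combination against DMSO (41 lower and PCNA higher, adjusted p = 0.00985), with 13.6% of all genes lower. It gave 38 against 5-Ph-IAA (37 lower, 1 higher, with 10.5% of all genes lower), 26 against ATRi (all lower, 5.95%), 6 for the interaction (all negative, 0.942%) and 0 for either compound alone. The lowest count of any of the 52 genes in any library was 87.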
